A study of Homo with 2 samples.

Results

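Matrix-rich cells high in LUM and DCN made up 172 of the 4589 cell barcodes in single-cell RNA sequencing of day 4 human blastoids. In each of the 2 libraries, barcodes were kept if they had at least 1000 detected genes, at least 10000 UMIs (unique molecular identifiers, each standing for 1 captured RNA molecule) and 1 to 20% of UMIs from mitochondrial genes. They also had to hold under 200 CPM of POU5F1 (CPM, UMIs of a gene per 1000000 UMIs of the cell or group) and under 300 CPM of MKI67 plus TOP2A, which set aside POU5F1-high and cycling barcodes. The 1144 gated barcodes were ranked within their library by the summed CPM of LUM, DCN, COL3A1 and COL6A3. The matrix-rich cells were chosen by these measured values as the top 15%, 78 in library 1 and 94 in library 2. They were set against the lower 50% of the same ranking, 259 and 314 barcodes, and the 180 and 219 barcodes between them formed a middle 35%.

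Blastoids are embryo-like aggregates, grown here from the human embryonic stem cell line KhES1, a line in established use. Dissociated cells were aggregated in microwells for 24 h and then kept in hydrogel for 4 days. The medium was DMEM with 10% FBS and 10 µM of Y27632, an inhibitor of the ROCK kinases that drive actomyosin contraction, and all cells of both libraries were exposed to it. Both libraries belong to 1 group and the labels do not say that they came from separate cultures, so every comparison is between cells of the same libraries and the spread between libraries may be technical.

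LUM encodes lumican and DCN encodes decorin, secreted small leucine-rich proteoglycans that bind collagen fibrils and limit their thickness; decorin also binds TGF-beta. COL3A1 encodes the chain of type III collagen, a fibrillar collagen of soft tissues, and COL6A3 encodes a chain of type VI collagen, which forms beaded filaments around cells. Such genes are best known from fibroblasts and other mesenchyme, while in early human embryos and their models the amnion is an epithelium that lies on a collagen-bearing mesoderm layer.

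The tables held 38665475 UMIs in library 1 and 45208758 in library 2. The gated matrix-rich cells had a median of 37929 and 35436 UMIs and 7597 and 7228 genes, against 33629 and 31545 UMIs and 7077 and 6920 genes in the lower 50%. Their mitochondrial share had a median of 5.86% and 5.83%, against 6.70% and 6.73%. The part of these depth and mitochondrial differences in the results was not tested beyond the alternatives given beside them. The libraries shared 1 barcode, which was not a matrix-rich cell, and no matrix-rich cell was among the 4 and 3 barcodes called as doublets.

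LUM supplied most of the signal that defined the cells. It was the highest of the 4 genes in 61 of 78 matrix-rich cells of library 1 and in 77 of 94 of library 2. LUM stood at 668.7 CPM in the matrix-rich cells of library 1 and 744.7 in those of library 2, against 90.4 and 116 in the lower 50%. DCN stood at 146 and 177 CPM in matrix-rich cells, against 23.4 and 23.3 in the lower 50%. These genes are neighbours on chromosome 12 (GRCh38, 91102629 to 91111494 for LUM and 91140484 to 91182817 for DCN). COL3A1, on chromosome 2 at 188974373 to 189012746, stood at 205 and 289.7 CPM in matrix-rich cells, against 14.1 and 11.9. COL6A3, on chromosome 2 at 237324018 to 237414164, stood at 123 and 137, against 14.4 and 23.3. The groups were separated for all 4 genes because the ranking used these values, so they are given without a test.

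**Figure D1:**
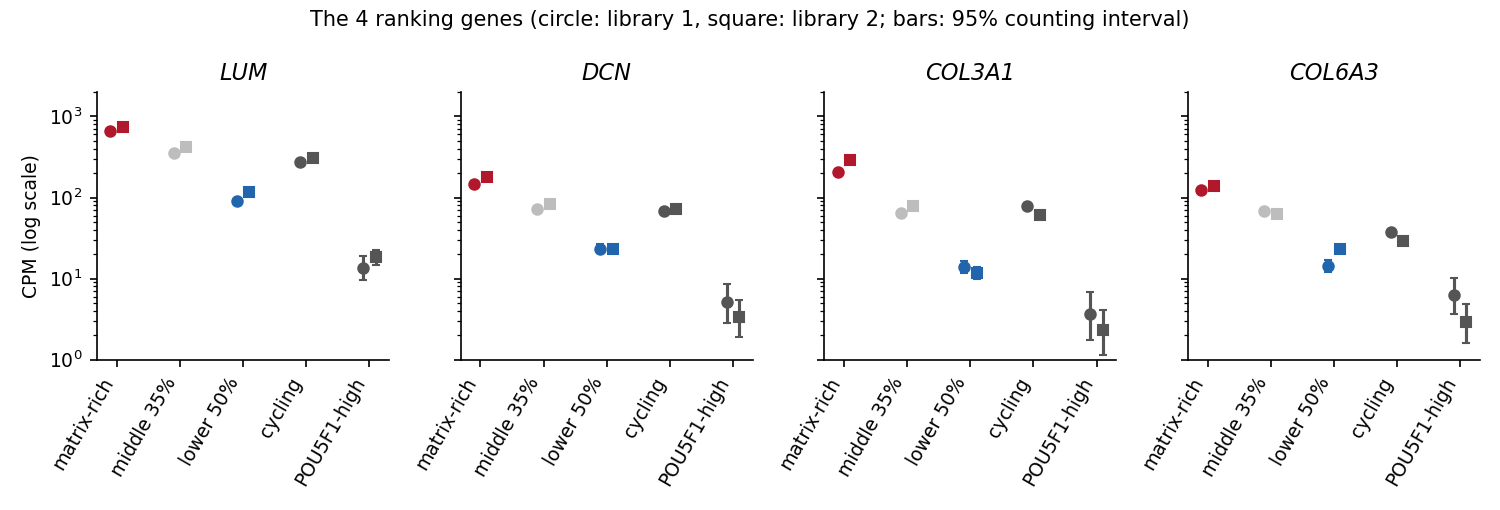
CPM (log scale) of the 4 ranking genes in the summed barcodes of each group, with circles for library 1, squares for library 2 and bars for the exact 95% Poisson interval, which covers counting error only. Each gene descends through the matrix-rich, middle and lower groups; the cycling barcodes lie between the middle and lower groups for LUM, DCN and COL6A3, and the POU5F1-high barcodes are lowest for every gene.

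The ranking cut through a continuous distribution. The lowest matrix-rich cells summed to 850.0 and 972 CPM, and the highest middle barcodes to 833 and 965. The median was 1039.8 and 1261 CPM in matrix-rich cells, 545 and 609.5 in the middle 35%, and 107 and 171 in the lower 50%. The lower 50% included barcodes with no UMI of any of the 4 genes, 52 in library 1 and 59 in library 2, or 20.1% and 18.8% of it. Their median depth was 25786 and 28868 UMIs, below the 35037 and 32355 of the remaining lower barcodes.

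**Figure D2:**
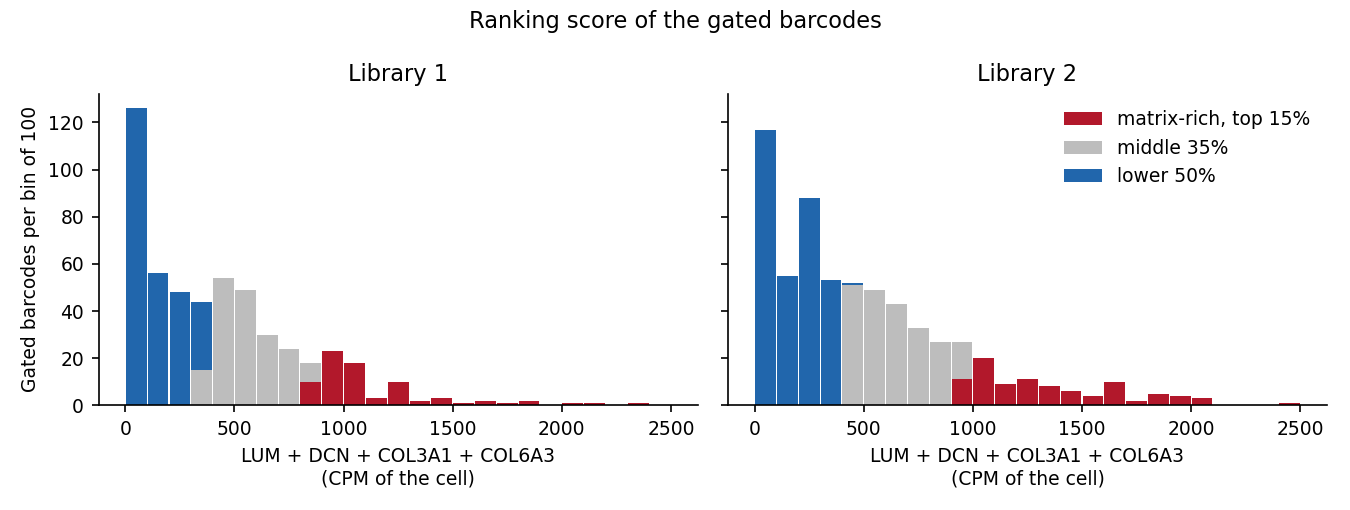
Number of gated barcodes in bins of 100 CPM of the summed ranking genes, with the matrix-rich, middle and lower groups stacked in each bin, per library. No gap separates the matrix-rich cells from the middle barcodes, which end at 833 and 965 CPM.

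The 4 genes were only loosely correlated from cell to cell. After each barcode was thinned to 10000 UMIs, the Spearman correlation across all gated barcodes was 0.30 and 0.36 for LUM with COL3A1 (517 and 627 barcodes of libraries 1 and 2), and 0.023 and 0.018 for DCN with COL6A3. Barcodes of a library share its preparation and the counts are sparse. All 4 genes had a UMI in 36 of 78 and 51 of 94 matrix-rich cells. When cells were ranked again by only the other 3 genes, the level of the gene left out was still higher in the top 15% than in the lower 50%: LUM by 2.32-fold and 2.76-fold, DCN by 3.105-fold and 4.31-fold, COL3A1 by 4.02-fold and 7.66-fold, and COL6A3 by 2.89-fold and 3.17-fold. Leaving out LUM replaced the most cells, with 61.5% and 73.4% of the original matrix-rich cells kept. Ranking on a random part of each cell's UMIs and measuring in the remainder gave 6.46-fold and 5.06-fold for LUM and 14.7-fold and 17.3-fold for COL3A1. The same genes of the same cells were ranked and measured here. A rise then follows from any difference between cells, and these values are a description.

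At an equal depth of 10000 UMIs, LUM was seen in 98.7% and 98.9% of matrix-rich cells, against 38.6% and 56.4% of the lower 50%. COL3A1 was seen in 70.5% and 85.1% of matrix-rich cells, against 13.1% and 6.69%. The POU5F1-high barcodes of the same libraries gave 9.52% and 16.4% for LUM. For COL3A1 they gave 0 of 42 (a count of 0 leaves room for up to 7.14%) and 4.11%. These barcodes were set apart by POU5F1 alone. They also held 481 and 511 CPM of primitive streak and early mesoderm markers, so they were not only pluripotent in their markers. Their median depth before thinning was 53848 and 51995 UMIs. The shares in matrix-rich cells follow from the ranking and are a description. Without thinning, LUM was seen in all 78 and 94 matrix-rich cells, against 62.5% and 71.7% of the lower 50% and 26.2% and 27.4% of the POU5F1-high barcodes.

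The matrix-rich cells held some of the markers of fibroblasts beside those of amnion and epithelium. Of 15 mesenchyme and fibroblast markers, 8 reached 10 CPM in the matrix-rich cells of both libraries and 7 in the lower 50%. Their summed level was 2512 and 2580 CPM in matrix-rich cells, against 1427 and 1523 in the lower 50%, and most of it was VIM, the intermediate filament vimentin. Of the 14 of these markers that could be tested as described below, VIM, COL1A1, PDGFRA, FBLN1, S100A4 and MEOX1 were called higher and none lower. MEOX1 rested on 7 and 14 UMIs in matrix-rich cells, and S100A4 was close to the threshold (edgeR adjusted p = 0.0472). Of 11 tested markers of extraembryonic mesoderm, 4 were called higher and none lower. Over all genes tested, 4.63% were called higher and 3.03% lower. FOXF1, a factor of extraembryonic and lateral mesoderm, was at 0 in the matrix-rich cells of both libraries. PDGFRA, the PDGF receptor that marks much mesenchyme, stood at 11.9 and 12.4 CPM, against 6.99 and 7.04. Of 15 amnion markers, 14 reached 10 CPM in matrix-rich cells and in the lower 50% alike; their sum was 5130 and 5284 CPM in matrix-rich cells, against 4405 and 4205. The epithelial cadherin gene CDH1 was seen in 91.0% and 91.5% of the thinned matrix-rich cells, against 86.5% and 89.5% of the lower 50%. The epithelial keratin gene KRT18 was seen in all 78 of library 1 and 98.9% of library 2, against 91.9% and 95.5%. Of 5 tested endothelial markers, 1 was called lower and none higher. PECAM1 and CDH5 had at most 1 UMI per library in the matrix-rich cells. FLT1, of the same list, had 34.6 and 39.7 CPM, against 44.0 and 37.1 in the lower 50%. The endoderm gene SOX17 had no UMI in the matrix-rich cells. With amnion and epithelial markers at these levels, the cells are called matrix-rich, by the rule, and are not given a fibroblast name.

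UMIs were then summed per library and band and compared with edgeR's quasi-likelihood test, with library as a block and Benjamini-Hochberg adjustment over all 16654 genes tested. The ranking and gate genes were left out of the calls. At an adjusted p under 0.05, 1275 genes (7.66%) differed between matrix-rich cells and the lower 50%. Of these, 771 (4.63%) were higher in matrix-rich cells and 504 (3.03%) were lower. The changes were mostly small: 125 genes (0.751%) were at least 2-fold higher and 205 (1.23%) at least 2-fold lower. All 1275 had the same direction in both libraries, and the middle 35% lay between the other groups in both libraries for 866 of them. A call from 2 libraries favours genes that are alike in both, and neither share was taken over all genes tested. Both counts are a description. Among the called genes of the lists described below, the libraries of the groups overlapped for ACTA2 alone, while 49.1% of all genes tested had no overlap. The number of genes called depended on the make-up of the lower 50%. Without its barcodes that held no UMI of the 4 ranking genes, referred to below as the reduced lower 50%, 640 were called, 427 higher and 213 lower. The count was also 744 without library as a block and 551 with DESeq2's Wald test. Rankings without LUM, DCN and COL3A1 called 1061, 1654 and 1344 genes. The 4.63% and 3.03% of all genes belong to the ranking by all 4 genes and the full lower 50%. List counts given below for another setting are a description, to be read beside the total of that setting.

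**Figure D3:**
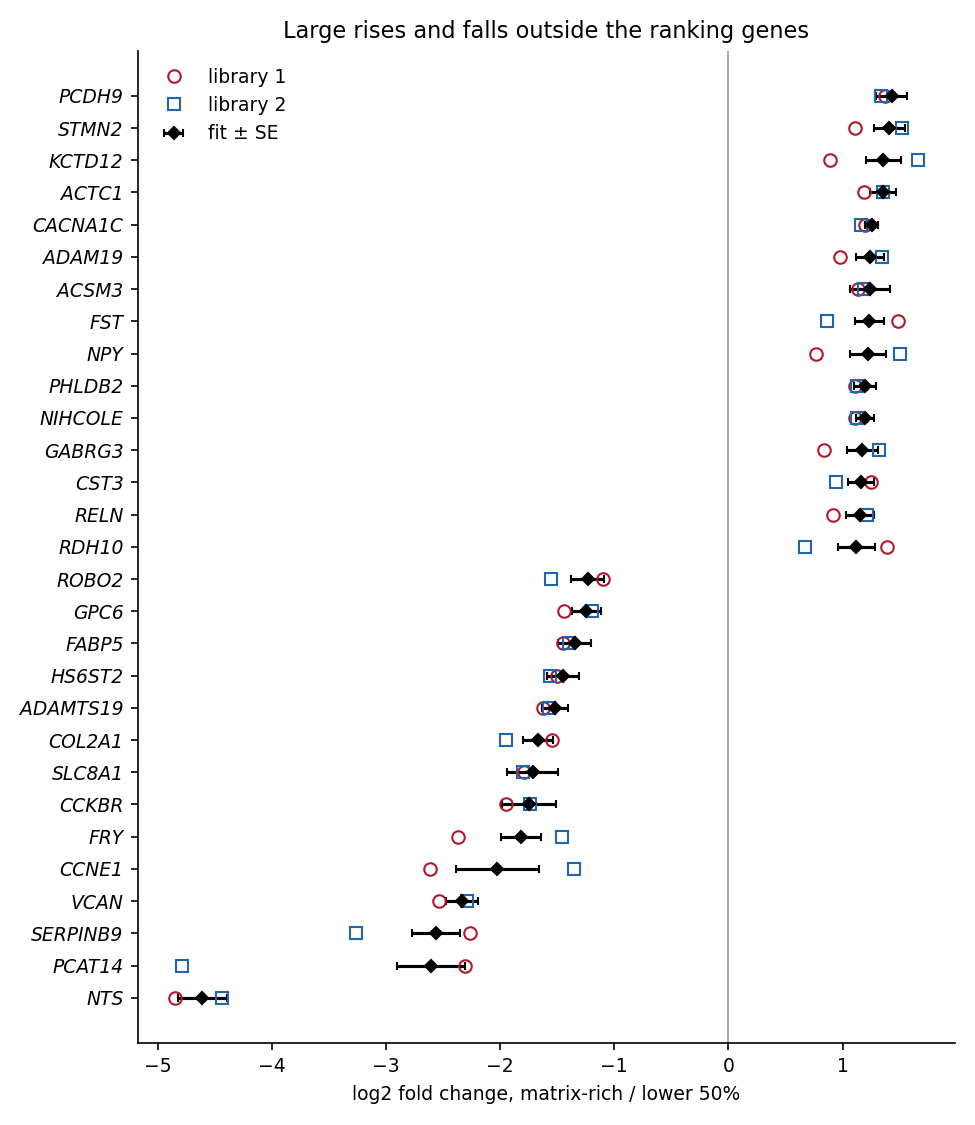
Log2 fold change of matrix-rich cells over the lower 50% for 15 rises and 14 falls among the largest of called genes with at least 50 CPM in the higher group, with diamonds and bars for the edgeR estimate and its SE and open symbols for the ratio within each library. Both libraries lie on the same side of 0 for every gene, which the choice of genes required. The rises lie between 1.12 and 1.43 and the plotted falls reach -4.61.

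Among called genes with at least 50 CPM in the higher group, the 15 largest rises had log2 fold changes of 1.12 to 1.43. Their choice required the same direction in both libraries. The largest rise of any called gene was 3.396 on the log2 scale. CACNA1C, the pore subunit of an L-type calcium channel, had 975 and 942 CPM in matrix-rich cells, against 426.5 and 421 in the lower 50%, a log2 fold change of 1.25 ± 0.058 (SE; edgeR adjusted p = 4.33e-07). It was seen in all of the matrix-rich cells of library 1 and in 98.9% of those of library 2, against 86.5% and 86.6%, and its 10 highest matrix-rich cells held 33.5% and 30.4% of its UMIs. ACTC1, cardiac alpha-actin, had 90.2 and 112 CPM in matrix-rich cells, against 39.5 and 43.6, a log2 fold change of 1.35 ± 0.11 (edgeR adjusted p = 2.34e-05). FST, the secreted activin antagonist follistatin, had 535 and 514, against 191 and 283, a log2 fold change of 1.23 ± 0.13 (edgeR adjusted p = 1.21e-04). CST3, the secreted cysteine protease inhibitor cystatin C, rose by a log2 fold change of 1.16 ± 0.11, and its level was 243 and 282 CPM, against 102 and 147. PHLDB2, which anchors microtubules near cell-matrix adhesions, rose by 1.20 ± 0.095.

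The adhesion gene PCDH9 had 83.8 and 82.4 CPM in matrix-rich cells, against 32.5 and 32.7 in the lower 50%, a log2 fold change of 1.43 ± 0.13, the largest rise at that level (edgeR adjusted p = 5.91e-05). STMN2, a microtubule regulator of growing axons, had 109 and 159, against 50.4 and 55.5, a log2 fold change of 1.41 ± 0.13. NPY, a secreted neuropeptide, had 63.9 and 75.01, against 37.6 and 26.4, but its 10 highest cells held 84.2% and 83.9% of its UMIs in the matrix-rich cells. Its log2 fold change of 1.22 went to 0.024 when the ranking left out LUM. RELN, the extracellular glycoprotein reelin, and GABRG3, a GABA receptor subunit, rose by 1.15 ± 0.12 and 1.17 ± 0.14. The remaining rises were KCTD12, ADAM19, ACSM3, NIHCOLE and RDH10, with log2 fold changes of 1.12 to 1.36. ACSM3 lost its call when the ranking left out COL3A1, with a log2 fold change of 0.75.

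Among the large falls, the RNA of some genes was held by few lower barcodes. NTS, the neuropeptide neurotensin, had 5.20 and 2.65 CPM in matrix-rich cells, against 149.6 and 57.4 in the lower 50%, a log2 fold change of -4.61 ± 0.21 (edgeR adjusted p = 4.33e-07), with 91.7% and 78.3% of the lower UMIs in 10 barcodes. SERPINB9, a granzyme B inhibitor, fell by 2.56 on the log2 scale and by 1.67 against the reduced lower 50%. CCNE1, the G1 cyclin E1, had 15.3 and 10.6 CPM, against 93.5 and 27.0; against the reduced lower 50% its log2 fold change was -0.63 and it was not called. The noncoding RNA PCAT14 also lost its call there, with a log2 fold change of -1.59. It held 53 and 3 UMIs in the matrix-rich cells, or 16.2 and 0.882 CPM. In the middle group it stood at 3.35 and 1.97 CPM, so the libraries disagreed, and it was not called against that group.

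The other falls were less concentrated for most genes, and they included matrix genes. COL2A1, the chain of the type II collagen of cartilage, had 23.2 and 19.4 CPM in matrix-rich cells, against 68.0 and 75.2 in the lower 50%. Its log2 fold change was -1.67 ± 0.13 (edgeR adjusted p = 1.85e-05), and the 10 highest lower barcodes held only 23.1% and 21.8% of its UMIs. VCAN, the large hyaluronan-binding proteoglycan versican, had 12.8 and 14.4, against 74.5 and 70.7, a log2 fold change of -2.33 ± 0.14 (edgeR adjusted p = 3.85e-06). ADAMTS19, a secreted metalloprotease, had 70.0 and 55.0, against 216 and 163, and GPC6, a cell-surface heparan sulfate proteoglycan, had 125 and 111, against 338 and 254.6. HS6ST2, which adds 6-O-sulfate to heparan sulfate, fell by 1.45 and the axon guidance receptor gene ROBO2 by 1.23 on the log2 scale. FRY, CCKBR, SLC8A1 and FABP5 completed the list, with falls of 1.35 to 1.82; in CCKBR the 10 highest lower barcodes held 78.7% and 66.0% of the UMIs. FABP5, a fatty acid binding protein, lost its call when the ranking left out COL3A1 (log2 fold change -0.65).

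**Figure D4:**
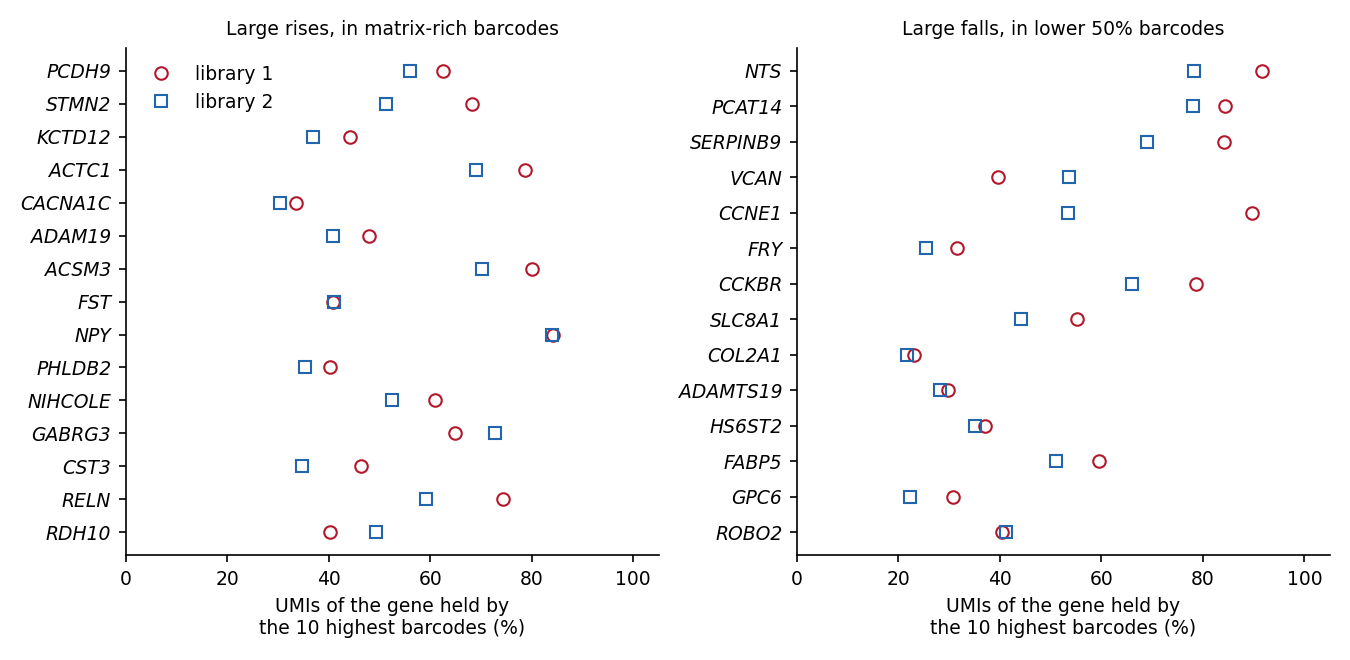
Share of a gene's UMIs held by the 10 highest barcodes, for 15 of the largest rises within the matrix-rich cells and 14 of the largest falls within the lower 50%, per library. Among the falls, NTS lies at the right and COL2A1, GPC6 and ADAMTS19 at 21.8 to 30.8%; among the rises, NPY is most concentrated and CACNA1C least.

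The small leucine-rich proteoglycans other than the ranking genes were not called. Only 5 of them (OGN, ASPN, OMD, PODN and ECM2) had enough counts to be tested, all under 4 CPM in either group, and none was called. BGN, biglycan, the closest relative of decorin, was too low to be tested, as were KERA and EPYC, the neighbours of LUM and DCN on chromosome 12.

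Among the fibrillar collagens besides COL3A1, 3 of 8 tested rose (37.5%) and 1 fell (12.5%), set against 4.63% and 3.03% of all genes. The median log2 fold change was 0.41 over the 8 and -0.00055 over all genes tested. COL1A1, a chain of type I collagen, had 44.3 and 44.7 CPM in matrix-rich cells, against 24.4 and 22.3 in the lower 50%, a log2 fold change of 1.01 ± 0.14 (edgeR adjusted p = 0.00104). Its partner chain COL1A2 had 53.5 and 72.7, against 56.1 and 46.8, and was not called. COL5A2 and COL5A1, chains of type V collagen, which starts type I fibrils, each rose by 0.49; the COL5A1 call was lost against the reduced lower 50%. The fall was that of COL2A1. Of 13 collagen VI and FACIT (fibril-associated) collagens besides COL6A3, 3 rose (23.1%) and none fell. COL12A1, which coats type I fibrils, had 83.5 and 82.4 CPM, against 45.2 and 46.2, a log2 fold change of 0.93 ± 0.094 (edgeR adjusted p = 9.5e-05). COL6A2 and COL16A1 rose by 0.59 and 0.77, and both calls were lost against the reduced lower 50%, leaving 1 of 13.

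Of 38 elastic fibre and matrix glycoproteins, 10 rose (26.3%) and 3 fell (7.89%), set against 4.63% and 3.03% of all genes. SPARC, a collagen-binding glycoprotein, had 174 and 176 CPM in matrix-rich cells, against 92.3 and 95.2 in the lower 50%, a log2 fold change of 0.98 ± 0.073 (edgeR adjusted p = 1.23e-05). TGFBI, an integrin-binding matrix protein, had 343 and 359, against 196 and 205, a log2 fold change of 0.89 ± 0.063. EFEMP2, needed for elastic fibre assembly, rose by 1.24 ± 0.19 at a low level, and the secreted factor NDNF by 1.03 ± 0.11. FN1, fibronectin, had 1074 and 1253 CPM, against 963 and 968, a log2 fold change of 0.34 ± 0.063, and its call was lost against the reduced lower 50%. The falls were those of VCAN, SMOC1 and HAPLN1, which links versican to hyaluronan. The count of rises was 7 against the reduced lower 50% and 6 when the ranking left out LUM.

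Most basement membrane genes were not called, with 8.70% called higher, set against 4.63% of all genes. Of 23 tested, 2 rose (1 against the reduced lower 50%), NID2 (nidogen 2) by 0.64 ± 0.12 and NPNT (nephronectin) by 0.69 ± 0.18, and none fell. NPNT had 58.4 and 29.4 CPM in matrix-rich cells, against 28.05 and 28.0, so library 2 alone gave a log2 ratio of 0.071. The median log2 fold change of these genes was -0.067. The laminin chain genes LAMB1 and LAMC1 had 184 and 186 and 142 and 129 CPM in matrix-rich cells, against 205 and 213 and 140 and 135, and were not called.

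Of the genes that build and process collagen, 10.3% were called higher and 3.45% lower, set against 4.63% and 3.03% of all genes. Of 29, LOXL4, PPIB and P4HB rose and PCOLCE2, an enhancer of procollagen cleavage, fell by 1.22 on the log2 scale. Against the reduced lower 50%, 1 rise and 1 fall remained called. PPIB, a collagen-folding isomerase, rose by 0.34 and stood at -0.0052 when the ranking left out LUM. Of 33 genes of the secretory pathway, 5 rose (15.2%). There were 2 rises against the reduced lower 50%, 1 in the ranking without LUM, 12 without DCN and 10 without COL3A1. KDELR3, a receptor that returns proteins to the endoplasmic reticulum, had the largest rise at 0.79 ± 0.16. Of 29 genes of glycosaminoglycan synthesis, 6.90% rose and 13.8% fell. SULF1 and SULF2, which trim heparan sulfate, rose by 0.67 and 0.33, and HS6ST2, HAS2, UST and CHST11 fell. Against the reduced lower 50% there were 1 rise and 2 falls. HAS2, the hyaluronan synthase, had 16.2 and 19.1 CPM in matrix-rich cells, against 41.4 and 29.8 in the lower 50%. Its log2 fold change was -0.91 ± 0.18. HAS2 was lower still in the middle group, at 10.6 and 7.20 CPM. Over that group its log2 fold change in matrix-rich cells was 1.03 ± 0.22, which was not called.

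Of 29 matrix proteases and inhibitors, 8 rose (27.6%) and 2 fell (6.90%), set against 4.63% and 3.03% of all genes. Against the reduced lower 50%, 8 rose and none fell. PAPPA2, a secreted protease that cleaves IGF-binding proteins, had 1061 and 1124 CPM in matrix-rich cells, against 548 and 569.7 in the lower 50%, a log2 fold change of 1.04 ± 0.076 (edgeR adjusted p = 9.72e-06). ADAM19, ADAMTS9, MMP2, ADAMTS6, CTSB, TIMP1 and ADAMTS12 also rose. MMP2, gelatinase A, had 30.3 and 41.8 CPM, against 19.9 and 19.3, a log2 fold change of 0.95 ± 0.17. The fall of MMP16 rested on 12 and 14 UMIs in matrix-rich cells, with log2 ratios of -3.31 and -1.32 in libraries 1 and 2, and lost its call against the reduced lower 50%. TIMP3 was not called, and its level was 12.2 and 27.4 CPM in matrix-rich cells, against 137.5 and 11.03, so the libraries disagreed. Against the reduced lower 50% it was called higher.

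Matrix receptors rose in 7 of 23 cases (30.4%) and fell in none, set against 4.63% and 3.03% of all genes. ITGB6, whose integrin binds fibronectin and activates latent TGF-beta, had 139 and 121 CPM in matrix-rich cells, against 80.6 and 79.3 in the lower 50%, a log2 fold change of 0.78 ± 0.083 (edgeR adjusted p = 1.39e-04). ITGAV, its alpha partner, had 171 and 164, against 123 and 126, a log2 fold change of 0.50 ± 0.076. ITGA8, a receptor for nephronectin, rose by 0.55 ± 0.079. The other called receptors were ITGA2, ITGA9, ITGB4 and ITGB5; these 4 calls were lost against the reduced lower 50%.

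The contractile and smooth muscle genes had the largest share called of the 31 lists. Of 15 tested, 11 rose (73.3%, set against 4.63% of all genes) and none fell, with a median log2 fold change of 0.55. TAGLN, the actin-binding protein transgelin, had 128 and 211 CPM in matrix-rich cells, against 81.8 and 98.9 in the lower 50%, a log2 fold change of 0.97 ± 0.10 (edgeR adjusted p = 1.14e-04). ACTA2, smooth muscle alpha-actin, had 10.1 and 22.4, against 3.83 and 11.4, a log2 fold change of 1.20 ± 0.21, and the libraries of the groups overlapped. MYL9, a myosin light chain, had 250.1 and 284, against 172 and 194. TPM1, a tropomyosin, had 4225 and 4081, against 2917 and 3318, a log2 fold change of 0.49 ± 0.056. CNN1, CNN2, TPM2, TPM4, CALD1, FLNA and PALLD made up the rest; CNN1, calponin, had log2 ratios of 0.41 in library 1 and 1.49 in library 2. The count was 10 against the reduced lower 50%, but 3 when the ranking left out LUM, where TPM1, FLNA and PALLD were still called. MYH11 and DES, markers of mature smooth muscle, were too low to be tested.

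Of 16 target genes of YAP and TEAD, 4 rose and none fell: ANKRD1, CCN1, F3 and AMOTL1, of which 2 were called against the reduced lower 50%. ANKRD1 had 80.4 and 67.4 CPM in matrix-rich cells, against 37.1 and 44.7 in the lower 50%, a log2 fold change of 0.93 ± 0.12. Thinned to 10000 UMIs per barcode, it stood at -0.13 and no gene of this list was called.

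**Figure D5:**
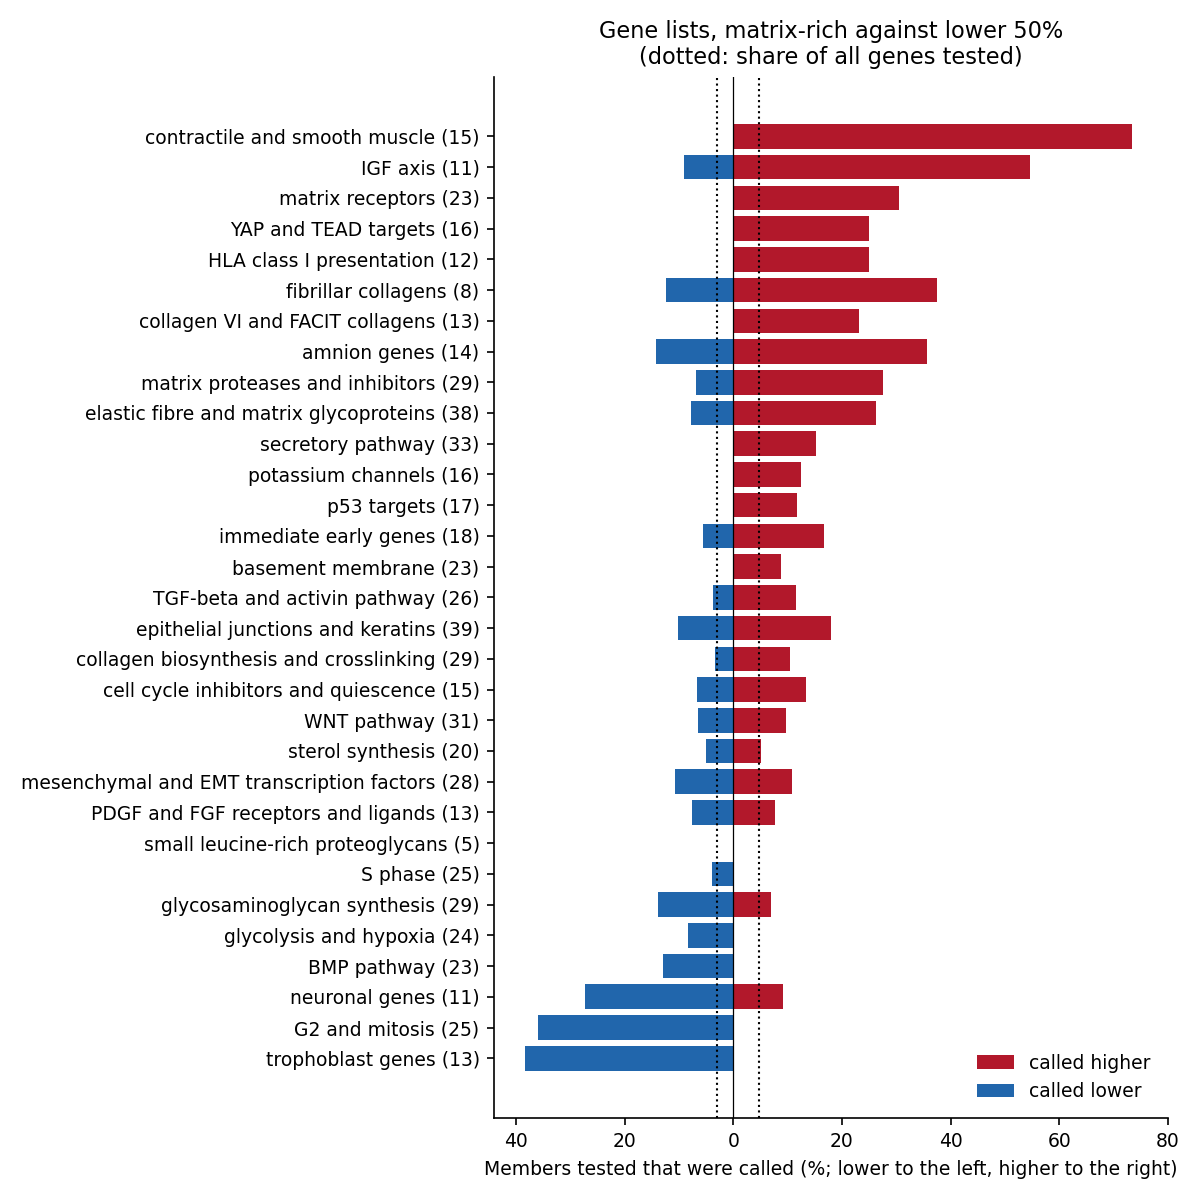
Percent of the tested genes of each list that were called higher (right) or lower (left) in matrix-rich cells against the lower 50%, with the number tested in parentheses and dotted lines at the 4.63% and 3.03% of all genes. The contractile list reaches 73.3% to the right and the trophoblast list 38.5% to the left.

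VIM rose, while the transcription factors of mesenchyme gave calls in both directions. VIM had 1951 and 1989 CPM in matrix-rich cells, against 955 and 1046 in the lower 50%, a log2 fold change of 1.05 ± 0.067 (edgeR adjusted p = 5.11e-06). In the lower barcodes with no ranking-gene UMI, VIM stood at 165 and 454 CPM, against 1122 and 1152 in the remaining lower barcodes, and against the reduced lower 50% its log2 fold change was 0.85. SNAI2, a repressor of E-cadherin, had 25.1 and 27.1 CPM in matrix-rich cells, against 10.7 and 9.25, a log2 fold change of 1.46 ± 0.17 (edgeR adjusted p = 2.41e-04). HAND1, expressed in extraembryonic mesoderm, amnion and trophoblast, had 401.5 and 434, against 265.5 and 316, a log2 fold change of 0.60 ± 0.068. Of 28 factors, these and MEOX1 rose (10.7%), and ZEB2, MSX1 and MSX2 fell (10.7%), set against 4.63% and 3.03% of all genes. Against the reduced lower 50% there were 2 rises and no falls. MEOX1 and ZEB2 stood under 10 CPM in every group. TWIST1 had 10.1 and 12.6 CPM, against 15.4 and 14.5, and was not called.

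Epithelial genes gave calls in both directions. Of 39 epithelial junction and keratin genes, 7 rose (17.9%) and 4 fell (10.3%), set against 4.63% and 3.03% of all genes. The median log2 fold change was 0.10. Against the reduced lower 50%, 3 rose and 3 fell. CDH3, P-cadherin, had 212 and 189 CPM in matrix-rich cells, against 168 and 167 in the lower 50%, a log2 fold change of 0.34 ± 0.071. CDH1 had 282 and 273, against 264 and 249, and EPCAM had 263 and 274, against 263 and 312; neither was called. The tight junction genes CLDN3 and CLDN4, with KRT23 and OVOL1, fell, CLDN4 by 0.83 ± 0.11, with 32.7 and 33.8 CPM, against 63.3 and 61.9. OVOL1 held 3 and 9 UMIs in matrix-rich cells, and KRT23 had log2 ratios of -1.93 in library 1 and -0.88 in library 2. The count of rises was 10 when the ranking left out DCN and 2 when it left out LUM. KRT18 rose by 0.23, and stood at -0.14 when the ranking left out LUM.

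Of 14 amnion genes, 5 rose (35.7%) and 2 fell (14.3%), set against 4.63% and 3.03% of all genes. Against the reduced lower 50%, 3 rose and 1 fell. GABRP, a GABA receptor subunit used as an amnion marker, had 660.5 and 636 CPM in matrix-rich cells, against 362 and 391 in the lower 50%, a log2 fold change of 0.86 ± 0.062 (edgeR adjusted p = 9.58e-06). CTSV, ITGB6, IGFBP3 and TFAP2B also rose, while IGFBP5 and GATA3 fell. VTCN1, another amnion marker, had 266 and 297, against 304 and 302, and ISL1 had 85.9 and 59.1, against 88.4 and 81.1; neither was called. Of 13 trophoblast genes, 5 fell (38.5%) and none rose. PEG10, an imprinted gene of placenta, had 125 and 90.6 CPM in matrix-rich cells, against 253 and 207 in the lower 50%, a log2 fold change of -1.03 ± 0.10 (edgeR adjusted p = 8.62e-05). GATA2 had 14.1 and 17.1, against 60.9 and 26.6, and its log2 fold change of -1.33 was -0.49 and not called against the reduced lower 50%, where 2 of 13 trophoblast genes were called. The hormone subunit gene CGA of syncytiotrophoblast had 1.22 and 5.59 CPM in matrix-rich cells, against 44.8 and 10.9.

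Calls among signalling genes are set against 4.63% of all genes called higher and 3.03% lower. The TGF-beta and activin list had 11.5% called higher and 3.85% lower, and the BMP list 13.0% lower. The PDGF and FGF list had 7.69% each way, and the WNT list 9.68% higher and 6.45% lower. Of 26 genes of the TGF-beta and activin pathway, FST, FSTL1 and SMAD2 rose and TGFBR2 fell, and only the rises were called against the reduced lower 50%; FSTL1, a secreted follistatin-like protein, had 399 and 367 CPM in matrix-rich cells, against 307 and 306 in the lower 50%. Of 23 BMP pathway genes none rose, and the targets MSX1, MSX2 and ID2 fell. MSX2 had 68.5 and 67.1, against 118 and 109, a log2 fold change of -0.66 ± 0.086, and none of these 3 was called against the reduced lower 50%. Of 13 PDGF and FGF genes, PDGFRA rose by 0.87 and FGFR1 fell by 0.52, and only FGFR1 was called against the reduced lower 50%. Of 31 WNT genes, the secreted modulators SFRP1 and DKK2 and the receptor gene FZD2 rose, and WNT3 and NKD1, both under 5 CPM, fell; against the reduced lower 50% there were 2 rises and no falls. DKK2 had log2 ratios of 0.48 in library 1 and 1.58 in library 2. SFRP1 had 355 and 348 CPM, against 219 and 239, a log2 fold change of 0.70 ± 0.068.

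The IGF axis rose in 6 of 11 tested genes (54.5%) and fell in 1 (9.09%), set against 4.63% and 3.03% of all genes. H19, the imprinted noncoding RNA beside IGF2, had 397.5 and 373 CPM in matrix-rich cells, against 234 and 240.0 in the lower 50%, a log2 fold change of 0.78 ± 0.064 (edgeR adjusted p = 2.34e-05). IGF2 had 20.8 and 15.6, against 9.96 and 8.49, a log2 fold change of 1.05 ± 0.19. IGFBP7, an abundant secreted IGF-binding protein, had 995 and 1003, against 698 and 717, a log2 fold change of 0.57 ± 0.054. IGFBP2, IGFBP3 and IGFBPL1 rose and IGFBP5 fell; the IGFBP3 call was lost against the reduced lower 50%.

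Some mitotic genes were lower in the matrix-rich cells after cycling cells had been gated out. Of 25 G2 and mitosis genes, none rose and 9 fell (36.0%, set against 3.03% of all genes), with a median log2 fold change of -0.59. Against the reduced lower 50%, 6 fell. The gate used MKI67 and TOP2A, which belong to the same phase, so these genes are not independent of it. CENPF, a kinetochore protein, had 65.4 and 68.8 CPM in matrix-rich cells, against 121 and 142.5 in the lower 50%, a log2 fold change of -0.89 ± 0.091 (edgeR adjusted p = 1.03e-04). CCNB1, cyclin B1, had 18.96 and 32.4, against 59.3 and 51.1. Within the gate, TOP2A stood at 25.4 and 23.2 CPM in matrix-rich cells, against 36.9 and 41.2. With DESeq2's Wald test 2 of the 25 fell, and 16 fell when the ranking left out LUM. Of 25 S phase genes, HELLS fell (4.0%) and none rose, while 9 fell when the ranking left out LUM. Of 15 cell cycle inhibitors and quiescence genes, CCND2 and CCNG1 rose (13.3%, set against 4.63% of all genes) and CDKN1C fell (6.67%, set against 3.03%). Of these 4 calls, only CCND2 was made against the reduced lower 50%.

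Set against the middle 35%, which is closest in the ranking, 33 genes (0.198%) were called, 25 (0.15%) higher and 8 (0.048%) lower. Of these, 32 were also called against the lower 50%. This comparison was added after the data were seen, and both comparisons share the matrix-rich cells. CACNA1C had 975 and 942 CPM in matrix-rich cells, against 640.4 and 582 in the middle 35%, a log2 fold change of 0.67 ± 0.058 (edgeR adjusted p = 9.83e-04). CDH11, a cadherin of mesenchyme, had 138 and 142, against 87.4 and 76.4, a log2 fold change of 0.80 ± 0.12 (edgeR adjusted p = 0.0199). BNC2, a zinc finger protein, rose by 0.53 ± 0.061, and KCNN2, a calcium-activated potassium channel, by 0.72 ± 0.085. The matrix proteases ADAMTS6 and ADAMTS9 and the secreted matrix gene FREM1 rose by 0.42, 0.55 and 0.76. Among the 8 falls, the synaptic adhesion gene CLSTN2 had 42.8 and 46.5 CPM, against 92.4 and 85.8, a log2 fold change of -0.97 ± 0.10. TMEFF2 fell by 2.13, and CENPF, SLC2A3 and H4C3 were lower too. COL1A1 was not called here, with 44.3 and 44.7 CPM in matrix-rich cells, against 29.3 and 37.5 in the middle 35%. Nor were ACTA2, HAND1, COL5A1, CCN1, ANKRD1 and H19, with log2 fold changes of -0.021, 0.10, -8.1e-05, -0.0098, 0.051 and 0.11. The rises of these genes against the lower 50% were largely shared with the middle 35%.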

How the data were processed

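Per the labels' protocols, droplet 3′ libraries (Chromium Next GEM, v3.1) were made from dissociated blastoids. The authors deposited raw UMI counts by gene and barcode, 1 table per library, and their processing notes, as the submitters gave them to GEO, name Cell Ranger 9.0.0 and GRCh38. Only the 25556 of 28363 genes listed in both tables were tested. Counts were summed per library and band (6 sums) and tested with edgeR 4.0.16 (TMM, filterByExpr, quasi-likelihood test, a library block, adjustment by Benjamini-Hochberg, calls at 0.05). The bands of a library come from that library itself, which is the source of the pairing. The SE is the size of the log2 fold change divided by the square root of F. Genes were named if called, alike in direction in both libraries and at 50 CPM or more (15 largest rises and falls), or if among the 4 largest folds of a list at 10 CPM or more; others were named after their values were seen. Shares and intervals are exact 95% ones and cover counting error only; the limit for a share of 0 is 3 counts. Doublets were called with scrublet in scanpy 1.11.5 at 0.8% per 1000 barcodes; 4 and 3 barcodes were marked, fewer than 0.5% of the barcodes, so doublets were not dependably removed. On simulated counts for matrix-rich against lower 50%, with 16860 genes, 70 of 100 2-fold and 89 of 96 4-fold changes were recovered, with 15 false calls. The simulated sums were drawn independently, with a fixed dispersion and no library effect. They therefore do not measure the share of false calls in these data. The members and the lists were chosen with earlier results of these data known. Some genes that met the naming rule are not reported here.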

Additional observations from a re-analysis of the deposited data

Results flagged for a closer look

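UMIs of the ranking genes were also counted in barcodes outside the gate, above the limit that a count of 0 allows. Passing that limit shows only that such UMIs were present, and free RNA also gives them. The POU5F1-high barcodes held 28.8 and 26.9 CPM of the same sum, at a median depth of 53848 and 51995 UMIs. Barcodes under 10000 UMIs had a median of 3431 and 2829, so the POU5F1-high barcodes do not measure the free RNA in them. The part of free RNA in the sums below was not tested. In barcodes under 10000 UMIs their sum was 279.9 CPM in library 1 (75 barcodes) and 511 in library 2 (461 barcodes), with limits of 9.13 and 1.74. In barcodes with under 1% mitochondrial UMIs it was 535 and 449.5 CPM (94 and 79 barcodes), with limits of 4.58 and 3.14. In barcodes with over 20% mitochondrial UMIs it was 120.5 and 115 CPM (71 and 69 barcodes), with limits of 4.95 and 5.30. The gated matrix-rich cells themselves were at 1142 and 1349 CPM. LUM made up 79.1% of the sum in the barcodes under 1% mitochondrial UMIs of library 2, against 33.8% in those over 20%.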

How the results depend on the processing

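The matrix-rich cells gave 1275 called genes (771 higher, 504 lower) against the lower 50%. The count moved by over 1.5 times in these settings: 640 (427 and 213) without the lower barcodes that held no ranking-gene UMI, a setting chosen after seeing the data; 712 (469 and 243) thinned to 10000 UMIs; 819 (301 lower) ranked on a random part of the UMIs and summed from the remainder; 744 (439 and 305) with no replicate block for library; 551 (358 and 193) with DESeq2's Wald test; and 2008 (1035 lower) with no filter on low counts. The other settings gave 1002 to 1654. Of 176 called genes followed one by one, 63, 66, 44, 53 and 57 lost the call with the direction kept in the first 5 of these settings. Genes that turned direction or had no test result there are not in these counts. No gene called in both the main setting and another changed sign. Ranked without LUM, 1061 genes were called and 635 of them were shared with the main calls; PPIB stood at -0.0052, KDELR2 at -0.046, CCND2 at -0.0051, KRT18 at -0.14 and CHST11 at 0.017 on the log2 scale. TIMP3 stood at 0.99 in the first setting and was called there. APOA2 stood at 0.48 ranked without COL3A1 and ANKRD1 at -0.13 after thinning. The cause was not tested. Leaving out either library turned no direction among the called genes, but a call from 2 libraries favours such agreement. TIMP3, which was not called in the main setting, had log2 ratios of -3.49 in library 1 and 1.31 in library 2. With 2 libraries no test remains after leaving 1 out. Genes under about 10 CPM rest on few UMIs in the matrix-rich cells.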

Other observations

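Of 16 potassium channel genes, KCNMA1 and KCNQ5 rose in the matrix-rich cells (12.5%, set against 4.63% of all genes) and none fell. KCNMA1, the large-conductance calcium-activated channel, had 1178 and 1112 CPM in matrix-rich cells, against 673 and 735 in the lower 50%, a log2 fold change of 0.78 ± 0.068 (edgeR adjusted p = 3.77e-05). KCNQ5 had 1099.6 and 1010.2, against 661 and 709.8, a log2 fold change of 0.70 ± 0.063. HLA class I presentation genes rose in 3 of 12 cases (HLA-C by 0.46, TAPBP by 0.85 and B2M by 0.34), and 2 were called without the lower barcodes that held no ranking-gene UMI (the reduced lower 50%).

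Of 11 neuronal genes, STMN2 rose (9.09%) and NTS, GAL and MAP2 fell (27.3%), set against 4.63% and 3.03% of all genes. Of 24 glycolysis and hypoxia genes, SLC2A3 and VEGFA fell and none rose; 8 of the 24 fell when the ranking left out LUM. SLC2A3, a glucose transporter, had 197 and 173 CPM in matrix-rich cells, against 311 and 304 in the lower 50%, a log2 fold change of -0.66 ± 0.075. Of 18 immediate early genes, JUN, FOSL2 and KLF6 rose and KLF4, with 3 and 6 UMIs in matrix-rich cells, fell. Of 17 p53 targets, CCNG1 and PHLDA3 rose, and both calls were lost against the reduced lower 50%. Of 20 sterol synthesis genes, FDFT1 rose and SREBF2 fell, and neither was called against the reduced lower 50%. In that setting VEGFA, FOSL2 and KLF4 were not called either. The ranking genes were also present in the cycling barcodes of the same libraries, where their sum was 461 and 468 CPM, against 28.8 and 26.9 in the POU5F1-high barcodes.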
